A study of Mus musculus with 24 samples.

Results

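The genes described here are 10 that make liver triglyceride or build the very low density lipoprotein (VLDL) particle that carries it into blood: Gpam, Agpat2, Lpin1, Lpin2, Mogat1, Dgat1, Dgat2, Apob, Mttp and Tm6sf2. They were chosen by mouse gene symbol, with earlier results of these data known. All 10 were found once each among the 56205 gene rows of the count table. RNA was sequenced from whole livers of C57BL/6J mice of both sexes, 12 on a methionine- and choline-deficient (MCD) diet rich in fat and 12 on a control diet, for 20 weeks. The labels call the control diet chow, while the study's methods name a control diet made for the MCD diet, and which of these was fed is not settled here. The paper lists an MCD diet in its methods but elsewhere abbreviates a mouse model as CDAHFD, which spells out a lack of choline alone. Whether methionine was lacking too is not settled here. No mouse carried a transgene or a deletion by the labels, and the sex of a single library was not given.

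The liver joins fatty acids to glycerol 3-phosphate in steps catalysed by GPAT, AGPAT, lipin and DGAT enzymes, the last of which gives triglyceride. Microsomal triglyceride transfer protein then loads lipid onto apolipoprotein B as it enters the endoplasmic reticulum, and TM6SF2 is needed for the particle to fill with lipid. Choline and methionine feed the synthesis of phosphatidylcholine, the main phospholipid of the particle's surface, and mice that lack both store fat in the liver.

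Counts per library were 16793207 to 24915175 in the control group and 16388650 to 24577848 in the MCD group. Levels are given as CPM, counts scaled to library size, after TMM scaling, which assumes that most genes do not change. The TMM factors were 0.642 to 0.973 in control and 1.07 to 1.26 in MCD libraries and did not overlap, and on total counts alone the median log2 fold change of all genes tested was 0.268 where on the TMM scale it was -0.10. Each member is therefore given on both scales, and ratios of a pair of genes in 1 library are added because scaling cannot change them. Control replicate 12 stood apart: its TMM factor was the lowest, and its median correlation with the other control libraries was 0.918 where the other control libraries had 0.952 to 0.968. Marker RNAs of other cells moved with the diet too. Of 8 macrophage markers 7 rose and 1 fell, and their summed level was 186 to 490 CPM in control and 1609 to 3491 CPM in MCD livers. Of 8 mesenchymal markers 7 rose and 1 fell (summed 168 to 547 and 776 to 1384 CPM), 4 of 5 cholangiocyte markers rose (22.9 to 43.7 and 70.2 to 133 CPM), 3 of 6 lymphocyte markers rose (2.73 to 8.46 and 9.66 to 20.0 CPM), and 4 of 5 endothelial markers fell (127 to 235 and 76.1 to 127 CPM). On total counts the macrophage and mesenchymal lists each had 7 higher and 0 lower, all 5 cholangiocyte and 5 of 6 lymphocyte markers were higher, and 2 of 5 endothelial markers were lower. Of 9 hepatocyte markers 5 fell and 0 rose by edgeR (0 at an unadjusted p under 0.05), and their summed level was 84014 to 204501 CPM in control, with Control replicate 12 the highest, and 66942 to 95009 CPM in MCD livers. On total counts 0 of these 9 were called lower and 1 was called higher (median log2 fold change -0.24). Of the adipocyte markers, Adipoq, Plin1, Lep and Retn had a median of 3 counts or fewer over the libraries, as had the enterocyte markers Alpi and Lct. MCD replicate 4 stood apart here: its 5 adipocyte markers summed to 122 CPM, where the other MCD livers had 0 to 0.697 and the control livers 0 to 10.8, and without it the same number of members, 7, were called lower and 0 higher. Of the enterocyte list 1 rose and 2 fell (1271 to 5128 and 587 to 2373 CPM), 1 of which is Apoa4, a gene that liver also expresses. The part of these cell types in the members' values was not tested, and in whole liver fewer hepatocytes and less RNA per hepatocyte cannot be told apart.

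Calls needed an FDR of 0.01 or less and a log2 fold change beyond 0.5 either way. The study's methods state these limits for human data tested with DESeq2. By these limits 7 of the 10 members were lower in MCD livers, 0 were higher and 3 were not called. At an unadjusted edgeR p under 0.05 also 0 were higher. Gpam, Lpin1, Mogat1, Dgat2, Apob, Mttp and Tm6sf2 fell, and Agpat2, Lpin2 and Dgat1 were not called. Over all 14109 genes tested with edgeR's quasi-likelihood test, 19.1% were called lower and 19.2% higher. The median log2 fold change of the members was -0.94, beside -0.10 over all genes tested. On total counts 5 of the 10 (Gpam, Mogat1, Dgat2, Mttp and Tm6sf2) were called lower and 0 higher, where 6.01% of all genes tested were called lower and 32.2% higher, and the members' median was -0.58 beside 0.268. Without Control replicate 12, the 7 calls stood where 17.9% of genes were called lower. For 4 members (Gpam, Dgat2, Apob and Mttp) every MCD library lay below every control library on the TMM scale, which held for 4.88% of all genes tested. On total counts this held for none of the 10 (0.688% of all genes tested), and for Gpam and Mttp once Control replicate 12 was set aside (2.4%). At an FDR of 0.05 with no fold limit 8 of the 10 were lower, as were 37% of all genes tested, and at a log2 limit of 1 it was 5 of the 10 and 4.86%.

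**Figure D1:**
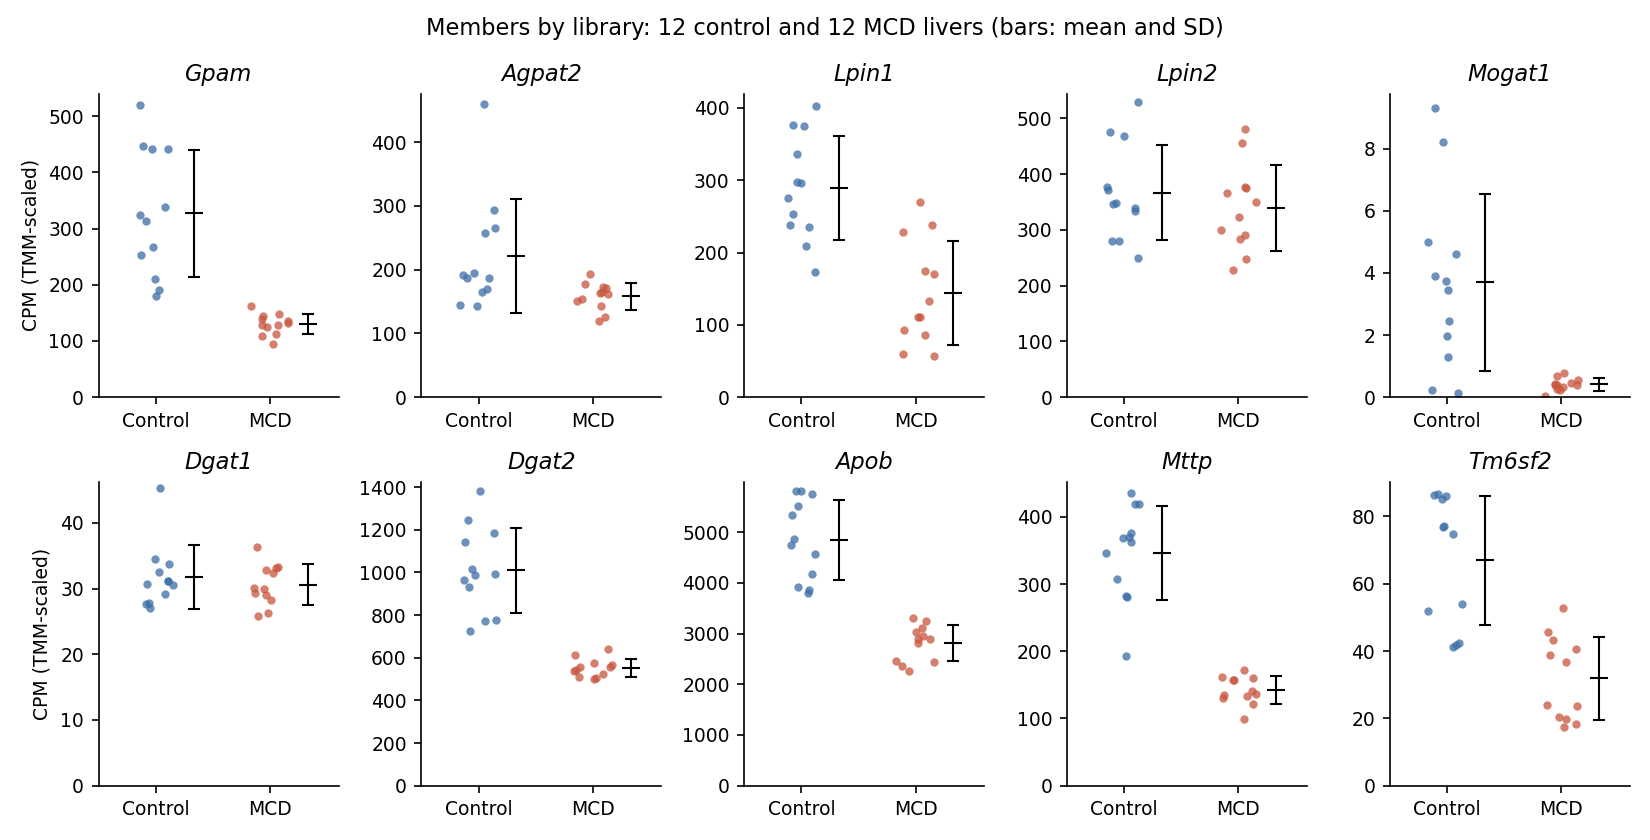
Level of each of the 10 members in every library, in TMM-scaled CPM on axes that start at 0, with 12 control livers in blue and 12 MCD livers in red and bars for the mean and SD. The clouds of Gpam, Dgat2, Apob and Mttp do not overlap, those of Dgat1 and Lpin2 lie side by side, and Tm6sf2 falls in an upper and a lower cloud within each diet.

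**Figure D2:**
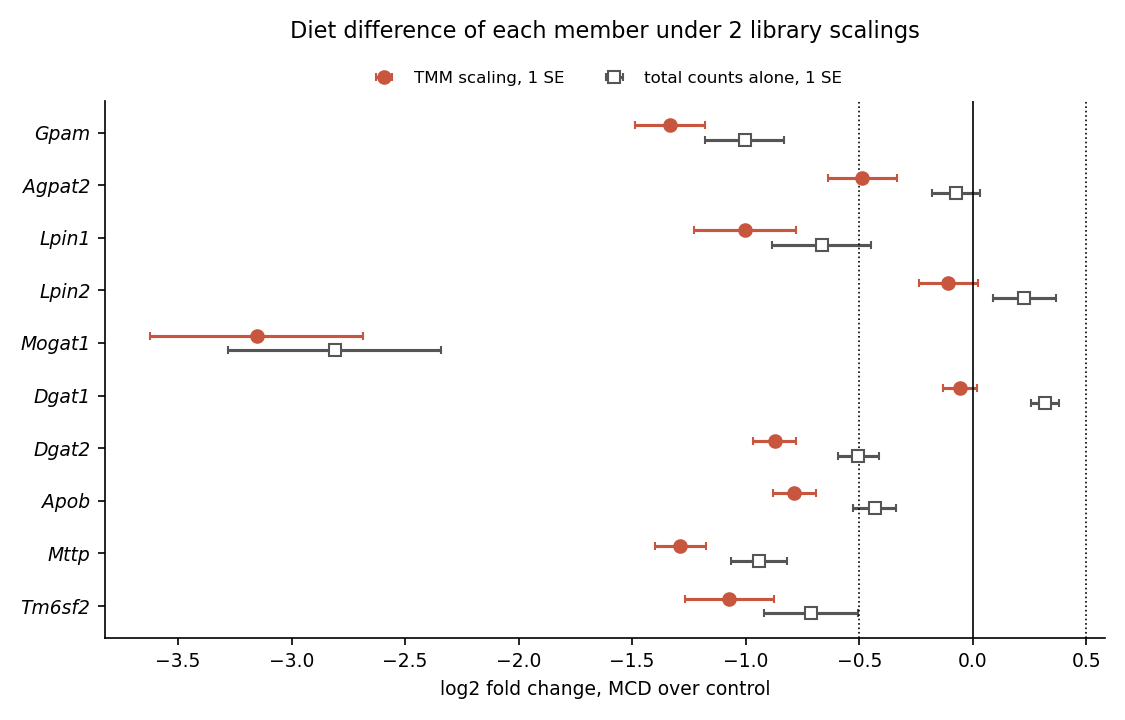
Log2 fold change of each member, MCD over control, with TMM scaling (filled circles) and on total counts alone (open squares), with bars of 1 SE and dotted lines at the fold limit of 0.5. Mogat1, Gpam and Mttp are below zero by 0.94 or more on both scales, while Dgat1 and Lpin2 change side.

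Compared per kilobase of exon, the most abundant member in control livers was Apob at 348 ± 56.6 CPM per kilobase (SD, n = 12), followed by Dgat2 at 328 ± 64.9, and the gap between the pair was smaller than either SD. Agpat2 came next at 104 ± 41.7. Mttp at 55.9 ± 11.3, Gpam at 49.1 ± 16.99, Tm6sf2 at 35.3 ± 10.1, Lpin2 at 29.96 ± 6.97 and Lpin1 at 29.9 ± 7.47 formed a middle group in which neighbours lay within the larger of their SDs. Dgat1 stood at 10.4 ± 1.59 and Mogat1 at 2.37 ± 1.83. In MCD livers the first 3 kept their order (202 ± 25.5, 179 ± 14.03 and 74.2 ± 9.79 CPM per kilobase), and Lpin2 at 27.8 ± 6.30 moved from the seventh to the fourth place, above Mttp at 22.9 ± 3.31 by less than its own SD.

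Gpam (ENSMUSG00000024978, chr19:55067268-55127238, minus strand, GRCm38) encodes the mitochondrial glycerol-3-phosphate acyltransferase, which adds the first fatty acid. Its level was lowest at 179 CPM, median 319 and highest 519 in control livers, and 94.9, 130 and 162 in MCD livers. The groups did not overlap, and the control livers were spread over a wider range (SD 113 against 18.5 CPM). Gpam fell to 39.7% of control, or by 1.33 on the log2 scale (SE 0.15, n = 12 per diet, edgeR FDR = 3.7e-08). On total counts it fell by 1.004 on that scale (SE 0.17, edgeR FDR = 1.6e-05), with Control replicate 12 at 115 CPM inside the MCD range of 112 to 174.

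The diet difference of Gpam was set against Gpat4, a microsomal enzyme of the same step that was not called (196 ± 56.0 CPM in control, 171 ± 48.4 in MCD, log2 fold change -0.20, SE 0.16, edgeR FDR = 0.28). The count ratio of Gpam to Gpat4 was 0.675 to 3.75 in control livers (median 1.64) and 0.554 to 1.24 in MCD livers (median 0.769). All 12 MCD livers lay below the control median, and 4 lay below every control liver. The ratio fell by 1.06 on the log2 scale (SE 0.25, permutation test with 100000 resamples, adjusted p = 0.000855 over the 6 ratios tested).

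Agpat2 (ENSMUSG00000026922, chr2:26593057-26604417, minus strand) encodes an endoplasmic reticulum enzyme that adds the second fatty acid. Its lowest, median and highest levels were 143, 190 and 459 CPM in control livers and 120, 162 and 193 CPM in MCD livers. The ranges overlapped, and the highest value was that of Control replicate 12. Its log2 fold change of -0.49 (SE 0.15, edgeR FDR = 0.0068) passed the FDR and missed the fold limit. Without Control replicate 12 it was -0.30 (edgeR FDR = 0.019), and on total counts it was -0.07 (edgeR FDR = 0.55). Leaving out Control replicate 2, 4, 5, 6, 7, 8 or 11, or MCD replicate 1 or 9, put it past the fold limit, at -0.54 at the most. Exons of Egfl7, an endothelial gene, overlap it on the other strand. The whole of Egfl7 had 15.8% as many counts as Agpat2, and whether the mouse counts used strand is not given in the sources used here.

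Lpin1 (ENSMUSG00000020593, chr12:16535669-16610966, minus strand) and Lpin2 (ENSMUSG00000024052, chr17:71182560-71249817, plus strand) encode lipins, the phosphatases that turn phosphatidate into diacylglycerol. Lpin1 was lowest at 173 CPM, median 286 and highest 403 in control livers, and 56.2, 122 and 271 in MCD livers. In 8 of the 12 MCD livers it lay below every control liver, and the others overlapped. It fell to 49.9% of control (log2 fold change -1.002, SE 0.22, edgeR FDR = 0.00035). On total counts its log2 fold change of -0.67 missed the FDR limit (edgeR FDR = 0.0102).

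Lpin2 was lowest at 249 CPM, median 347 and highest 529 in control livers, and 228, 336 and 482 in MCD livers. The ranges overlapped almost whole. Its log2 fold change was -0.11 (SE 0.13, 95% confidence interval -0.38 to 0.16, edgeR FDR = 0.48) and 0.23 on total counts (SE 0.14, edgeR FDR = 0.16), so its sign depends on the scaling. The ratio of Lpin1 to Lpin2 counts did change: it was 0.445 to 1.16 in control livers (median 0.834) and 0.174 to 0.654 in MCD livers (median 0.376), with 8 MCD livers below every control liver. It fell by 1.02 on the log2 scale (SE 0.20, permutation test, adjusted p = 0.00015).

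Mogat1 (ENSMUSG00000012187, chr1:78510991-78538173, plus strand) encodes a monoacylglycerol acyltransferase, which reaches diacylglycerol without the glycerol 3-phosphate steps. It was the scarcest member, with 3 to 208 counts (median 57) in control libraries and 1 to 15 (median 10) in MCD libraries. In CPM the lowest, median and highest values were 0.14, 3.59 and 9.32 in control livers and 0.0426, 0.404 and 0.788 in MCD livers. All 12 MCD livers lay below the control median, but 2 control livers at 0.14 and 0.226 CPM lay among the MCD livers. Mogat1 had the largest fall of the 10 on the log2 scale, -3.15 (SE 0.47, edgeR FDR = 1.8e-06), to 11.2% of control, and -2.81 on total counts (SE 0.47, edgeR FDR = 1.0e-05). A count of 3, taken as the floor of detection, is 0.109 to 0.227 CPM in these libraries. The lowest control liver had 3 counts and the lowest MCD liver had 1 count, under that floor. The ratio of Mogat1 to Agpat2 counts fell by 2.21 on the log2 scale (SE 0.58, permutation test, adjusted p = 0.0015), with medians of 0.0135 in control and 0.00282 in MCD livers.

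Dgat1 (ENSMUSG00000022555, chr15:76502015-76511953, minus strand) and Dgat2 (ENSMUSG00000030747, chr7:99153658-99182719, minus strand) encode unrelated acyltransferases that both add the last fatty acid. Dgat2, the enzyme mainly tied to newly made fatty acids, was lowest at 726 CPM, median 990 and highest 1380 in control livers, and 501, 549 and 643 in MCD livers. The groups did not overlap, and the MCD livers had the smallest relative spread of any member (coefficient of variation 7.84%, against 19.8% in control). Dgat2 fell to 54.7% of control (log2 fold change -0.87, SE 0.09, edgeR FDR = 1.3e-08), and by 0.504 on the log2 scale on total counts (SE 0.09, edgeR FDR = 2.5e-05), where 11 of the 12 MCD livers lay below every control liver.

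Dgat1 was lowest at 27.1 CPM, median 30.9 and highest 45.3 in control livers, and 25.8, 30.04 and 36.4 in MCD livers. The ranges overlapped, and the highest value was again Control replicate 12. Its log2 fold change was -0.06 (SE 0.08, 95% confidence interval -0.21 to 0.10, edgeR FDR = 0.53), but on total counts it was 0.32 (SE 0.06, edgeR FDR = 6.4e-05), past the FDR and under the fold limit. Its sign also turned without Control replicate 12 (0.03), MCD replicate 3 (0.005) or MCD replicate 12 (0.01).

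The ratio of Dgat2 to Dgat1 counts does not rest on the scaling. It was 23.2 to 44.9 in control livers (median 30.9) and 15.1 to 22.2 in MCD livers (median 17.6), so every MCD liver lay below every control liver. It fell by 0.80 on the log2 scale (SE 0.10, permutation test, adjusted p = 6.0e-05, from the smallest p that 100000 resamples can give), to 57.5% of control. Of the 6 ratios it was the only one whose groups did not overlap.

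Apob (ENSMUSG00000020609, chr12:7977648-8016835, plus strand) encodes apolipoprotein B, the scaffold of which each VLDL particle holds a single copy. Its lowest, median and highest levels were 3804, 4808 and 5815 CPM in control livers and 2254, 2893 and 3310 CPM in MCD livers. The groups did not overlap on this scale. Apob took 0.429% of all counts in control and 0.318% in MCD libraries. It fell to 58.0% of control (log2 fold change -0.79, SE 0.10, edgeR FDR = 8.2e-08). On total counts the log2 fold change of -0.43 (SE 0.10, edgeR FDR = 0.00031) missed the fold limit, and the ranges overlapped (2684 to 5652 CPM in control and 2774 to 3657 in MCD), with Control replicate 12 the lowest control.

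Mttp (ENSMUSG00000028158, chr3:138089854-138144968, minus strand) encodes the large subunit of microsomal triglyceride transfer protein, which moves lipid onto apolipoprotein B. It was lowest at 192 CPM, median 366 and highest 435 in control livers, and 98.6, 139 and 171 in MCD livers. The groups did not overlap. The lowest control liver was Control replicate 12, and the next was at 281 CPM, well above every MCD liver. Mttp fell to 40.9% of control (log2 fold change -1.29, SE 0.11, edgeR FDR = 2.8e-10), the lowest FDR among the 10. Without Control replicate 12 the log2 fold change was -1.31 (edgeR FDR = 1.1e-11), and on total counts it was -0.94 (SE 0.12, edgeR FDR = 2.3e-07). Exons of Gm43691 and Trmt10a overlap Mttp on the other strand, and these genes as a whole had 1.56% as many counts as Mttp.

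Mttp fell more than its partner Apob. The ratio of Mttp to Apob counts was 0.046 to 0.111 in control livers (median 0.073) and 0.0418 to 0.0658 in MCD livers (median 0.0505). The ranges overlapped, with all 12 MCD livers below the control median. The ratio fell by 0.49 on the log2 scale (SE 0.11, permutation test, adjusted p = 0.00072), to 71.0% of control.

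Tm6sf2 (ENSMUSG00000036151, chr8:70072924-70080066, plus strand) encodes a membrane protein of the endoplasmic reticulum and Golgi that VLDL needs in order to fill with lipid. Its lowest, median and highest levels were 41.1, 75.7 and 86.8 CPM in control livers and 17.6, 30.3 and 52.9 CPM in MCD livers. In 9 of the 12 MCD livers it lay below every control liver, and the others overlapped with the lower controls. It fell to 47.5% of control (log2 fold change -1.07, SE 0.20, edgeR FDR = 3.3e-05), and on total counts by 0.71 on the log2 scale (SE 0.21, edgeR FDR = 0.0042). The ratio of Tm6sf2 to Apob was 0.00719 to 0.0224 in control livers (median 0.0165) and 0.00622 to 0.0216 in MCD livers (median 0.0107). Its difference of -0.34 (SE 0.26, permutation test, adjusted p = 0.21) did not pass the test without a term for sex.

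**Figure D3:**
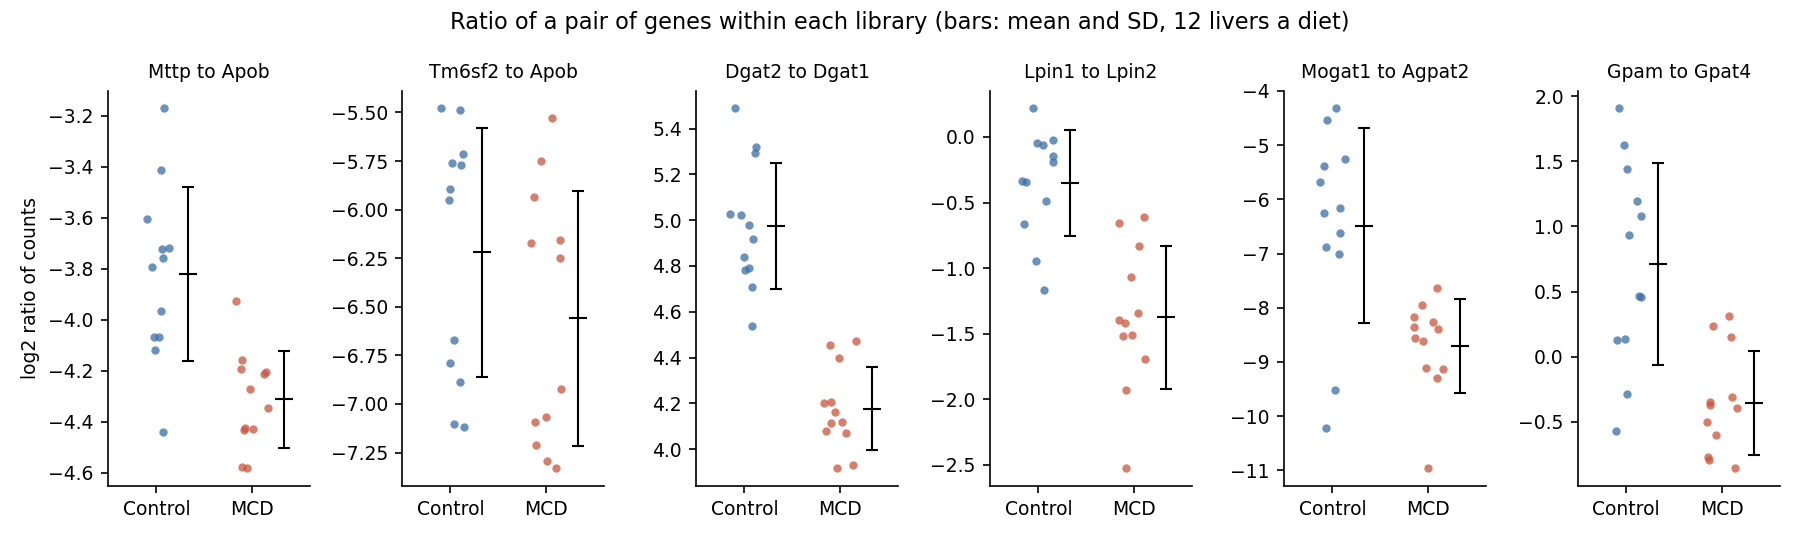
Log2 ratio of the counts of a pair of genes within each library, for the 6 ratios tested, with 12 control livers in blue, 12 MCD livers in red and bars for the mean and SD. The axes differ between panels and do not start at 0. The Dgat2 to Dgat1 panel is the only one without overlap, and the Tm6sf2 to Apob panel shows an upper and a lower cloud in both diets.

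Within each diet Tm6sf2 fell in an upper and a lower cloud of livers. Both sexes were used in equal numbers by the series' design, so a score of sex-linked RNAs (log2 CPM of Xist, which is made from the inactive X chromosome, minus the mean of Ddx3y, Eif2s3y, Kdm5d and Uty from the Y) entered the fit as a number scaled from 0 in the lowest library to 1 in the highest, with no library assigned a sex. The coefficient of this score was looked at after the members' values had been seen. Tm6sf2 was 0.98 higher on the log2 scale over the range of the score (SE 0.11, edgeR FDR = 5.0e-07). It was the 1 member of 10 called for the score, where 2.88% of the 14109 genes tested were called in either direction. Agpat2 (-0.52, SE 0.14, edgeR FDR = 0.021) and Mogat1 (-1.43, SE 0.43, edgeR FDR = 0.0403) missed the limit, and the other 7 had an FDR of 0.145 or more. With the score in the fit the diet difference of Tm6sf2 was -1.12 with an SE of 0.10 in place of 0.20 (edgeR FDR = 3.1e-10). The score was then added to the fits of the 6 ratios too, a choice made after seeing the data. The difference of the Tm6sf2 to Apob ratio stayed at -0.34, but its SE went from 0.26 to 0.12 and it passed the test (permutation of residuals, adjusted p = 0.007 over the 6 ratios). On the TMM scale Control replicate 12, whose factor was the lowest, did not follow the rest. Its score of 0.132 lay in the lower range, but its Tm6sf2 level of 77.0 CPM lay among the control livers of the upper range (74.7 to 86.8). The other controls of the lower range had 41.1 to 54.1. On total counts its level was 49.5 CPM, between the other controls of the lower range (35.0 to 42.8) and those of the upper range (69.4 to 84.0).

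**Figure D4:**
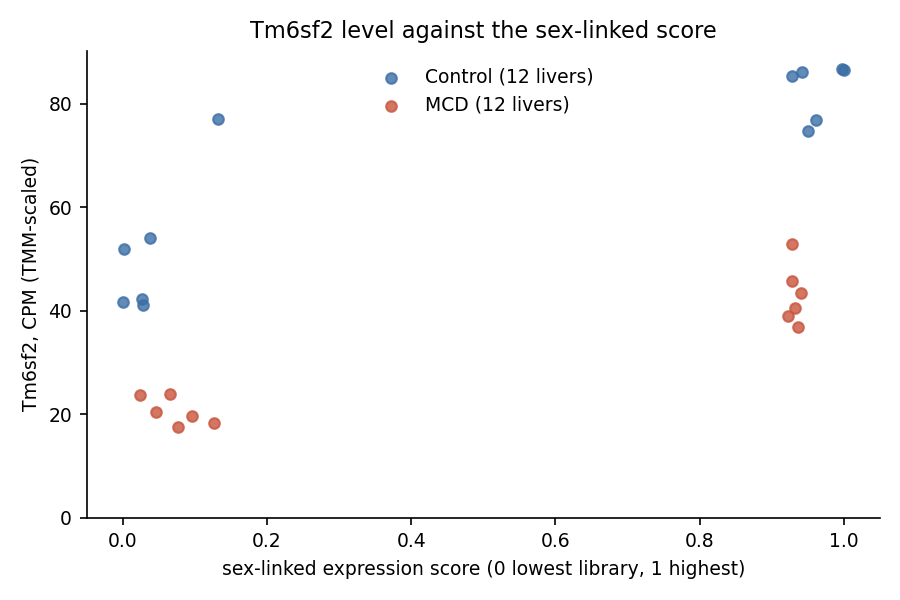
Tm6sf2 level in TMM-scaled CPM against the sex-linked score in 12 control (blue) and 12 MCD (red) livers. The score falls in a lower range of 0 to 0.132 and an upper range of 0.923 to 1, with 6 livers of each diet in each, and at both ends the MCD livers lie below the control livers.

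Promoter windows of RefSeq (GRCm38.p6, the bases before a transcription start) were at hand for 7 of the 10 members: Gpam, Agpat2, Lpin1, Lpin2, Mogat1, Apob and Mttp. Tm6sf2, Dgat1 and Dgat2 had no entry. These were 10 windows in all, since Lpin2 had 3 starts, Gpam 2 and each of the others 1. Each window of 250 bases was searched on both strands for 8 motifs. The sterol regulatory element TCACNCCAC, which the factor SREBP binds, was in none of the members' windows and in 1.05% of all 32851 windows. The TATA box TATAAA was in that of Apob alone (12.4% of all windows), and the nuclear receptor half-site AGGTCA was in 1 Gpam window and that of Lpin1 (14%). The CCAAT box CCAAT was found in 1 Gpam and 1 Lpin2 window (33.8%), the GC box GGGCGG in 1 Gpam window, that of Agpat2 and 2 of the 3 Lpin2 windows (32.7%), and the HNF1 half-site GTTAAT in 1 Lpin2 window and that of Mogat1 (6.43%). The E-box CACGTG (6.02%) and the forkhead motif TGTTTAC (3.17%) were each in 1 Lpin2 window. The 5 motifs of Lpin2 were not all in 1 window, with the E-box at its first start, a GC box at the first and at the second, and the other 3 motifs at the third. The percentages are shares of single windows, so a gene with several windows had more chances of a match than they give. The Mttp window held none of the 8. A match is only a match of letters. No capitals in the windows printed here belong to 2 motifs. The windows of Apob and of both Gpam starts are shown, since these genes fell without overlap on the TMM scale and varied together among MCD livers, with the motifs found in capitals.
Apob, chr12:7977427-7977676, plus strand: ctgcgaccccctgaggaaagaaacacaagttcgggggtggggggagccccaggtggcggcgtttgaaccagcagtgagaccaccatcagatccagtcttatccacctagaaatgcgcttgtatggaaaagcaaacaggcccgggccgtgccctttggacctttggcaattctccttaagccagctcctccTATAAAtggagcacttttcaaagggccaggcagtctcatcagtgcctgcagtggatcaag
Gpam, inner start, chr19:55099478-55099727, minus strand: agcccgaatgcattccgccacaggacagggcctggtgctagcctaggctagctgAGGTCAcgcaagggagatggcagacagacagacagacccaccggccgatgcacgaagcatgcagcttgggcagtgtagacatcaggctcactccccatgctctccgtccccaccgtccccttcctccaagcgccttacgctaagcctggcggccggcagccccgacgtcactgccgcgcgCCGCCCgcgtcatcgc
Gpam, outer start, chr19:55127239-55127488, minus strand: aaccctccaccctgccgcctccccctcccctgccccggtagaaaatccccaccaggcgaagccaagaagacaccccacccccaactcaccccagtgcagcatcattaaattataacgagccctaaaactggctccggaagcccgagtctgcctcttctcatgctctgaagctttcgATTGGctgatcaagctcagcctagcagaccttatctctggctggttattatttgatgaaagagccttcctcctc
The TATA box of Apob lies 60 to 55 bases before the RefSeq start. The AGGTCA of the inner Gpam window lies 196 to 191 bases and its GC box (on the other strand) 16 to 11 bases before the start. The CCAAT box of the outer window, also on the other strand, lies 74 to 70 bases before its start.

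Among livers on 1 diet, members varied together in few cases. Correlations of log2 CPM were computed for the 45 pairs of members within each diet, 90 in all. On the TMM scale 0 control pairs passed an adjusted p of 0.05 by the permutation test. Without adjustment, 9 control pairs (4 positive and 5 negative) and 11 MCD pairs (all positive) had a p under 0.05 on that scale. In MCD livers Gpam and Apob passed the adjusted limit (Pearson's r = 0.869, permutation test with 100000 resamples, p = 9.0e-05, adjusted p = 0.0081, n = 12), and Spearman's rho of 0.853 had a permutation adjusted p of 0.058. Without the 2 livers farthest from the median of Gpam, r was 0.867. On total counts r was 0.795 (permutation adjusted p = 0.06), and the 2 levels share 1 library's scaling. The median r over the 45 pairs was -0.12 in control and 0.405 in MCD livers on the TMM scale, and 0.111 and 0.16 on total counts. On total counts more control than MCD pairs had an unadjusted permutation p under 0.05. Most of those MCD pairs were positive, but r was -0.65 for Agpat2 and Tm6sf2 and -0.64 for Dgat1 and Apob.

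For each member, the gene outside the 10 with the most similar variation among livers was taken as that with the highest Pearson's r of log2 CPM after each diet's mean was removed, over 24 libraries and 13094 genes with a mean of at least 1 CPM. These r values are descriptions and share each library's depth and scaling. They include Control replicate 12, the highest liver for Agpat2 and Dgat1 and the lowest control for Mttp, and none is given without it. They were 0.932 for Mttp with Azin1, 0.871 for Gpam with Hsd17b7 (an enzyme of cholesterol synthesis), 0.908 for Dgat2 with Hgfac and 0.887 for Apob with Usp24. They were 0.938 for Agpat2 with Adck5, 0.883 for Dgat1 with Marc2, 0.84 for Lpin2 with Cntrl, 0.779 for Lpin1 with St3gal5 and 0.856 for Mogat1 with Clstn3. For Tm6sf2 it was Xist (0.889), whose level was 0 to 0.194 CPM in 12 libraries and 160 to 546 CPM in the other 12, so this r describes the step between separate clusters and no relation within a cluster was tested.

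Of 16 other genes of the glycerolipid steps, 4 fell, 3 rose and 9 were not called, with a median log2 fold change of -0.09 beside -0.10 for all genes tested, of which 19.1% were lower and 19.2% higher. Those that fell were Plpp3, a lipid phosphate phosphatase (241 ± 61.1 CPM in control and 112 ± 23.1 in MCD, log2 fold change -1.10, SE 0.14), Gpd1, which makes glycerol 3-phosphate (364 ± 124 and 175 ± 34.3 CPM, -1.05, SE 0.16), Gk, glycerol kinase (-0.61, SE 0.16), and Lclat1 (-0.56, SE 0.08). Mogat2, the intestinal relative of Mogat1, rose from 0.818 ± 0.50 to 4.61 ± 2.77 CPM (log2 fold change 2.49, SE 0.31, edgeR FDR = 1.0e-07), with 6 to 35 counts in control and 50 to 350 in MCD libraries and no overlap. Agpat4 rose from 1.54 ± 0.705 to 5.70 ± 1.54 CPM (1.88, SE 0.21) and Plpp2 from 35.9 ± 9.79 to 59.4 ± 5.47 CPM (0.73, SE 0.12). On total counts 5 of the 16 were called higher and 2 lower (32.2% and 6.01% of all genes tested), Gk and Lclat1 were not called, and the median turned to 0.28 beside 0.268 for all genes tested.

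Of 18 other genes of VLDL assembly, 8 fell, 2 rose and 8 were not called (median log2 fold change -0.45, beside -0.10 over all genes tested, of which 19.1% were lower and 19.2% higher). A1cf, the RNA-binding partner of the enzyme that edits Apob mRNA, fell the most, from 104 ± 35.4 to 23.3 ± 8.02 CPM (log2 fold change -2.16, SE 0.24, edgeR FDR = 1.7e-08). Apobec1, that editing enzyme, rose from 9.06 ± 2.02 to 19.2 ± 3.34 CPM (1.08, SE 0.12, edgeR FDR = 2.6e-08) with no overlap between the diets, and counts per gene cannot show the editing itself. The lipid hydrolases Ces1d (-1.06, SE 0.17) and Aadac (-0.98, SE 0.14) fell, as did Mia2 (-0.81, SE 0.10), which helps large cargo leave the endoplasmic reticulum. Ces1d has near-identical neighbours in its gene family, so its counts are uncertain. Sort1, a sorting receptor that binds apolipoprotein B, rose from 10.5 ± 2.74 to 29.8 ± 6.40 CPM (1.51, SE 0.13, edgeR FDR = 4.3e-10). On total counts 3 were called lower and 2 higher (6.01% and 32.2% of all genes tested), with a median of -0.07 beside 0.268, and Mia2 (-0.47) missed the fold limit.

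Of 15 regulators of these genes, 6 fell, 0 rose (also 0 at an unadjusted edgeR p under 0.05) and 9 were not called (median log2 fold change -0.48, beside -0.10 over all genes tested, of which 19.1% were lower and 19.2% higher). Ppara, the receptor that senses fatty acids, fell from 118 ± 38.9 to 34.7 ± 7.46 CPM (-1.76, SE 0.20). Srebf1, which encodes the factor that drives fatty acid and triglyceride synthesis, fell from 518 ± 200 to 171 ± 58.2 CPM (-1.60, SE 0.20, edgeR FDR = 1.5e-07). Mlxipl, whose protein senses glucose, fell from 301 ± 81.7 to 125 ± 18.8 CPM (-1.26, SE 0.13), and Ppargc1b, a coactivator of SREBP, from 6.83 ± 2.10 to 3.14 ± 0.698 CPM (-1.12, SE 0.15). For Srebf1, Mlxipl and Ppargc1b the diets did not overlap. On total counts these 4 were the ones called lower, where 6.01% of all genes tested were, and the median was -0.08 beside 0.268. Srebf1 overlaps exons of Rai1 on the other strand.

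**Figure D5:**
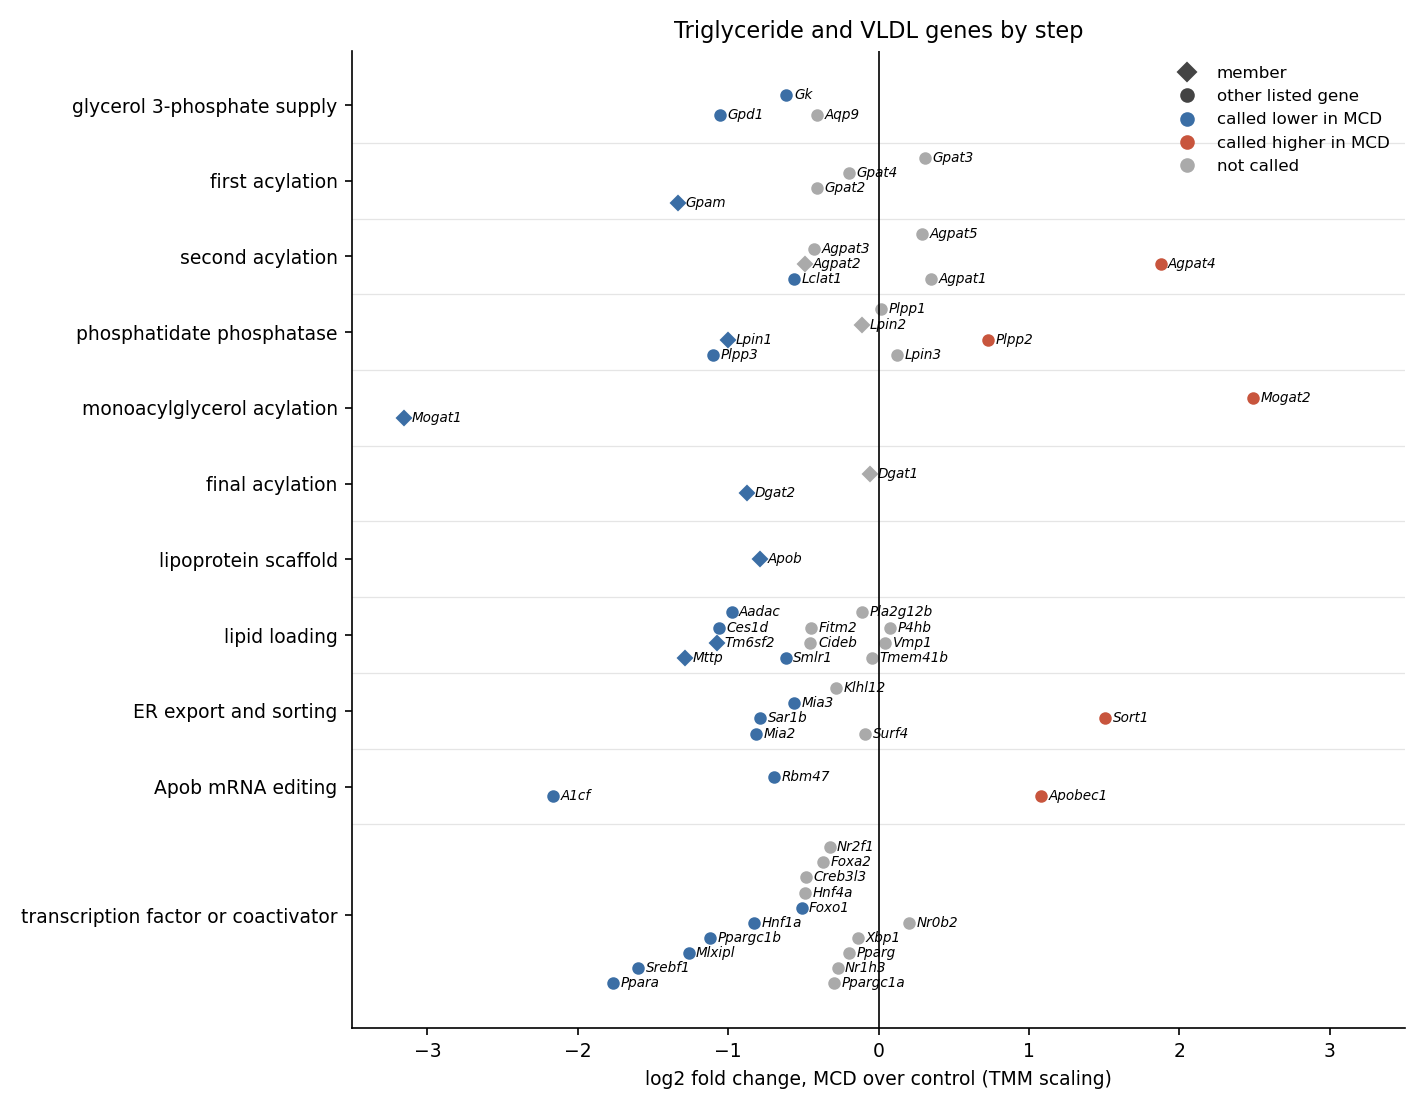
Log2 fold change (MCD over control, TMM scaling) of the 10 members (diamonds) and the other listed genes (circles), by step of the pathway, with genes called lower in blue, called higher in red and not called in grey. Called falls occur on this scale at every step and among the regulators, the largest being Mogat1 at -3.15, and the 5 called rises are Mogat2, Agpat4, Sort1, Apobec1 and Plpp2.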

How the data were processed

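Poly(A) RNA of 24 whole livers was sequenced. The authors deposited raw read counts per Ensembl gene, 1 column per library, with 0 columns left unused here. By the submitters' processing notes, bcl2fastq and STAR 2.7.3a were used with mm10. The study's methods describe a stranded mRNA kit and quantification with PISCES and an exon quantification pipeline, against a human reference. For the mouse libraries the counting program, its annotation and the use of strand in counting are not given in the sources used here. Symbols, coordinates and exon lengths came from GENCODE M21 (GRCm38, the same assembly), which named 51745 of 56205 rows. Rows without a symbol held 0.0808% of counts.

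The members and gene lists were chosen with earlier results of these data known. Genes were kept with filterByExpr by diet (14109), scaled with TMM and tested with edgeR 4.0.16 (glmQLFit, glmQLFTest, R 4.3.3), diet as the only term. SEs were taken from the fold change and the F statistic. Calls needed a Benjamini-Hochberg FDR of 0.01 and a log2 fold change beyond 0.5. Ratios took log2 of counts plus 0.5, and permutation tests were two-sided with 100000 resamples (Python 3.11.15, numpy 2.4.6). Log2 CPM used a prior count of 2. Named from each list were the 4 largest rises and falls that were called, with Gpat4 as a ratio partner. The fit was tested on simulated data for this comparison, with 200 genes changed among 14109. There edgeR recovered 82 of 100 at a log2 fold change of 1 and 99 of 100 at 2, with 0 false calls. In the livers 19.1% of the genes tested were called lower and 19.2% higher. How the fit and its TMM scaling do with shares as large as these was not tested. Alternatives were RLE, upper-quartile and total-count scaling, 2 other count filters, DESeq2 1.42.0, limma-voom (limma 3.58.1), a replicate block, the sex-linked score, 2 other thresholds, a pseudocount of 2, leaving out each library and, added after seeing the data, the score as a term for the ratios. The labels give 1 library per mouse by the design text. Tf of the hepatocyte list matched no row. Libraries held 16388650 to 24915175 counts.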

Additional observations from a re-analysis of the deposited data

How the results depend on the processing

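The count of members called lower was 7 and stayed between 5 (total counts, and a log2 limit of 1) and 8 (FDR of 0.05 with no fold limit), with 0 called higher under every alternative run. With 10 counts required in every library Mogat1 was not tested and 6 were called lower. Leaving out each library gave 7 to 8 lower and 0 to 0 higher. The log2 difference then ranged from -0.84 to -0.75 for Dgat2 to Dgat1, -1.18 to -0.95 for Gpam to Gpat4, -1.10 to -0.92 for Lpin1 to Lpin2, -2.55 to -2.01 for Mogat1 to Agpat2, -0.55 to -0.43 for Mttp to Apob and -0.43 to -0.27 for Tm6sf2 to Apob, and none of the 6 changed side of the 0.05 threshold, nor with a pseudocount of 2. With the sex-linked score as a term, chosen after seeing the data, the Tm6sf2 to Apob difference of -0.34 passed the threshold, and the other 5 kept their side. The sign of Lpin2 turned with upper-quartile factors (0.039) and total counts (0.23). That of Dgat1 turned with RLE (0.0029), upper-quartile factors (0.096), total counts (0.32), 10 counts in every library (0.027) and DESeq2 (0.0039), and leaving out each library gave it -0.080 to 0.033. On total counts Apob (-0.43) and Lpin1 (-0.67) were no longer called, and relations past 0.05 in MCD livers went from 1 to 0. Over all genes tested, the median log2 fold change was 0.37 higher on total counts than with TMM. Why the scalings differ was not tested. With the replicate block 7 members were called lower and 0 higher. The labels share replicate numbers. Of the 12 same-numbered pairs, 8 had a correlation of deviations above 0.1 (range -0.28 to 0.35). All pairs but replicates 2 and 8 (correlations -0.28 and -0.21) lay in the same range of the sex-linked score, so the block also carries part of that score. Only 2 of 12 correlated best with their own number, and the libraries were not treated as paired. Mogat1 had the fewest counts of the members, 1 to 208 per library, and its lowest values are near the floor of 3 counts or under it.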
